A study of Mus musculus with 3 samples.

Results

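The genes described here are the NF-kB subunit genes Nfkb1, Nfkb2, Rel, Rela and Relb, the inhibitor genes Nfkbia, Nfkbiz, Nfkbie and Tnfaip3, and the cytokine gene Tnf, which are 10 of 21887 protein-coding mouse genes. EZH2 chromatin immunoprecipitation with sequencing (ChIP-seq) was carried out on bone marrow-derived macrophages of adult C57BL/6 mice, grown from marrow for 5 days with M-CSF conditional medium. One group was not treated (NT), and the other received LPS, a bacterial cell wall component sensed through Toll-like receptor 4, for 2 h. Each group had 1 EZH2 library, and a sample of input DNA was not analysed here. The dose of LPS, the number of mice and any pooling are not given in the labels. For each gene, every listed EZH2 interval that met the gene or the 10 kb on either side of it was taken. The genes were selected on measured values of these libraries, because earlier results showed intervals listed in LPS alone at Nfkb1, Tnfaip3 and Tnf and in NT alone at Rela, so their pattern between NT and LPS is a description and was not tested.

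NF-kB transcription factors are dimers of the 5 subunits encoded by these genes, and in resting macrophages most of them are held in the cytoplasm by IkB proteins. LPS leads to the breakdown of IkB proteins, and the freed dimers enter the nucleus and induce, among other genes, their own inhibitors and Tnf. EZH2 is the enzyme of polycomb repressive complex 2 that methylates lysine 27 of histone H3, a mark of repressed chromatin, and is best known at promoters of developmental genes. No expression data were analysed here, so neither the induction of the genes nor the identity of the cells can be checked from RNA.

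The NT library listed 9643 intervals and the LPS library 4651. Each interval carries 1 deposited value at its summit, a whole number whose unit, scaling and relation to read depth are not given in the sources used here. It ran from 11 to 253 in NT (median 27) and from 7 to 100 in LPS (median 16). Both libraries listed an interval in 4027 merged regions, where LPS values were at the median 0.5 of the NT value, so a lower value in LPS was the usual case and cannot be read as loss of EZH2. The stimulated track is named TLR in the file and was taken as the LPS sample, the only stimulated EZH2 sample in the labels. With 1 library per group, no difference below has a replicate check.

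NT intervals lay within 10 kb of 8 of the 10 genes (46.0% of all protein-coding genes) and LPS intervals within 10 kb of 7 (21.2% of all). Both libraries had an interval at 5 genes (20.6% of all genes), which were Nfkb2, Nfkbia, Nfkbiz, Nfkbie and Tnf. NT alone had one at Rel, Rela and Relb, 3 genes (25.4% of all genes), and LPS alone at Nfkb1 and Tnfaip3, 2 genes (0.635% of all genes). Counting only intervals that met the gene itself, Tnf joined the genes with LPS alone, making 3 (0.557% of all genes), Rel and Rela were the 2 with NT alone (22.4%), Nfkb2, Nfkbia, Nfkbiz and Nfkbie were the 4 with both (15.7%), and Relb had no interval. Because the genes were chosen by such values, these counts are set beside the background without a reading of their difference. In length the genes ran from 2.64 kb for Tnf to 107 kb for Nfkb1, with a median of 13 kb against 17.2 kb over all protein-coding genes.

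**Figure D1:**
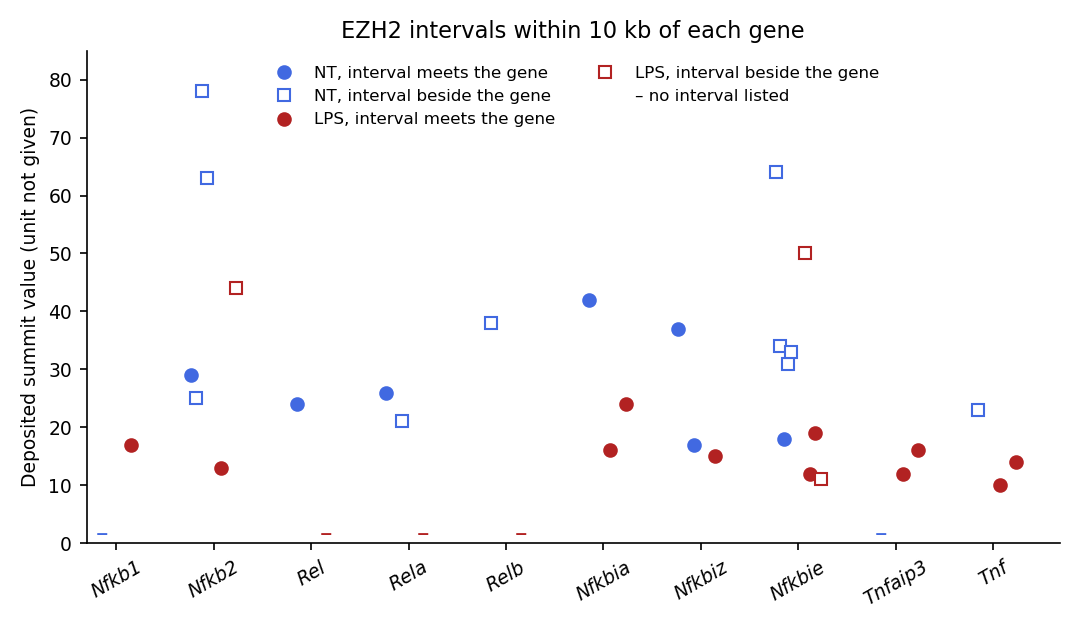
Deposited summit value (unit not given) of every EZH2 interval within 10 kb of the 10 genes, in NT (blue) and LPS (dark red), where filled circles are intervals that meet the gene, open squares are intervals beside it and a dash marks a library with no interval. Values over the genes themselves reached 42 in NT and 24 in LPS, and the values from 44 up all belong to intervals beside Nfkb2 and Nfkbie.

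Among the subunit genes, Nfkb1 was the only one with an interval in LPS and none in NT. It encodes p105, the precursor of the p50 subunit, and lies at 135584655 to 135691969 on chromosome 3 (mm10). Its LPS interval ran from 135690445 to 135691187, 743 bp wide, with a summit value of 17 placed 1024 bp inside the higher-coordinate end of the gene. The nearest NT interval on the chromosome was 134558 bp away. Of 1438 LPS intervals with a value within 3 of it, 1386 met an NT interval (96.4%, 95% Wilson interval 95.3 to 97.2%), so the interval at Nfkb1 was among 52 of its size without one. Wilson intervals here cover counting error only.

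Nfkb2, which encodes p100, the precursor of p52 in the slower noncanonical pathway, carried intervals of both libraries over its promoters. The gene lies at 46300994 to 46312400 on chromosome 19. NT had a value of 29 in an interval from 46304000 to 46306087, and LPS had 13 from 46304269 to 46305994, with summits 64 bp apart. Their ratio of 0.448 lay above 34.1% of all shared regions. Both intervals held all 3 promoter windows that the RefSeq promoter table gives for Nfkb2.

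The higher values near Nfkb2 lay beyond its 3' end and over the neighbouring gene Psd. There NT had 3 intervals with values of 25, 78 and 63, and LPS had 1 interval of 3837 bp with a value of 44. The LPS interval met the NT intervals of 78 and 63 and ended 8 bp short of the NT interval of 25. In this window the highest values, 78 and 44, therefore describe Psd and not Nfkb2.

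Rel and Rela encode the subunits c-Rel and p65, which carry a transactivation domain, and at both gene starts an interval was listed in NT and none in LPS. Neither NT interval was left when the NT list was shortened to its 4651 highest intervals or both lists were kept from their median value up. At Rel (chromosome 11, 23736847 to 23770969) the NT interval from 23770327 to 23771931 had a value of 24, with its summit 120 bp downstream of the transcription start. At Rela (chromosome 19, 5637442 to 5648134) the NT interval from 5636775 to 5638195 had a value of 26, with its summit at -324 bp, upstream of the start. The nearest LPS intervals were 302257 bp from the one at Rel and 74203 bp from the one at Rela. An NT interval without an LPS partner was common at these values: of NT intervals within 3 of the value at Rel, 27.7% of 2845 met an LPS interval, and for Rela it was 31.9% of 2624. A further NT interval near Rela, with a value of 21, lay 5520 bp from it, over the neighbour Sipa1.

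At Relb, which encodes the subunit that pairs with p52, no interval of either library met the gene (chromosome 7, 19606217 to 19629438). The NT interval in its window, from 19603726 to 19604732 with a value of 38, lay 1484 bp away and over Clasrp. It had no LPS partner, and the nearest LPS interval was 25544 bp away. Of 930 NT intervals within 3 of this value, 62.0% had a partner, and of the 424 among them with a width within a factor of 1.5, 35.1% had.

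The inhibitor gene Nfkbia encodes IkB-alpha, which NF-kB induces and which binds p65 dimers and removes them from DNA. It lies on chromosome 12 from 55489409 to 55492647 and is transcribed towards lower coordinates. Over its start, the NT interval (55492218 to 55493174) had a value of 42 and the LPS interval (55492202 to 55493174) a value of 24. Both ended at the same base, and their summits were 134 bp and 118 bp downstream of the transcription start. That shift of 16 bp is the step of the summit positions, since 96.6% of NT and 93.3% of LPS summits fell on multiples of it. The value of 42 in NT was the highest over any of the 10 genes.

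A second LPS interval inside Nfkbia met no NT interval; it spanned 55490616 to 55491888 and had a value of 16. Its summit lay 1350 bp downstream of the start and 1888 bp before the 3' end, and it began 329 bp from the NT interval at the start. Among LPS intervals within 3 of its value, 95.3% of 1607 met an NT interval. With NT intervals up to 1 kb away accepted as partners, this interval had one, and those at Nfkb1, Tnfaip3 and Tnf still had none.

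Tnfaip3 encodes A20, a ubiquitin-editing enzyme that ends signalling upstream of the IkB kinases. The gene lies on chromosome 10 from 19000910 to 19015410, and no NT interval met its window. One LPS interval had a value of 16, spanned 19014402 to 19015737 and covered the first transcription start, and its summit was 369 bp downstream of it. The other, from 19002048 to 19003090 with a value of 12, lay at the opposite end of the gene with its summit 1587 bp before the 3' end. NT intervals were 168538 bp and 156184 bp away. Of LPS intervals within 3 of these values, 95.3% of 1607 and 88.8% of 2084 had an NT partner.

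Nfkbiz and Nfkbie carried intervals of both libraries. Nfkbiz, whose product IkB-zeta acts in the nucleus on secondary response genes, lies on chromosome 16 from 55811375 to 55838954. Inside it, NT had a value of 37 in an interval from 55821370 to 55822721 and LPS had 15 from 55821322 to 55822552, with summits 16 bp apart and 16969 bp and 16953 bp from the higher-coordinate end. A second NT interval at that end, with its summit 169 bp inside the gene, had a value of 17 and no LPS partner, as had most NT intervals within 3 of that value, of which 17.8% of 2231 met an LPS interval.

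Nfkbie encodes IkB-epsilon, another cytoplasmic inhibitor, on chromosome 17 from 45555700 to 45563169. At its start the NT interval (45555381 to 45556442) had a value of 18 and the LPS interval (45555418 to 45556569) had 12, with summits 93 bp and 45 bp downstream of the start. Past its 3' end, NT had a value of 31 in an interval 433 bp outside the gene and over Slc35b2, and an LPS interval with a value of 19 met both genes. The remaining intervals belonged to neighbours. Over Tmem151b they had values of 64 and 34 in NT and 50 in LPS, and over Hsp90ab1, a heat shock protein gene, 33 in NT and 11 in LPS. Every interval in the window of Nfkbie had a partner in the other library.

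Tnf encodes the inflammatory cytokine TNF and is among the first genes that macrophages transcribe after LPS. It is a short gene on chromosome 17, from 35199367 to 35202007, transcribed towards lower coordinates. LPS listed an interval at each end of it. The one at the start, from 35201375 to 35202399, had a value of 14 and its summit 118 bp downstream of the transcription start. The one at the 3' end, from 35198409 to 35199448, had a value of 10 and its summit 441 bp past the gene. Neither met an NT interval. Among LPS intervals within 3 of these values, 92.0% of 2038 and 86.2% of 1597 did.

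The NT interval in the window of Tnf, from 35195317 to 35196413 with a value of 23, lay over Ltb, which encodes lymphotoxin beta. It was 2953 bp from Tnf and 1995 bp from the LPS interval at the 3' end of Tnf, and it had no LPS partner. Counted by window, Tnf was thus a gene with both libraries, while no base was covered in both.

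**Figure D2:**
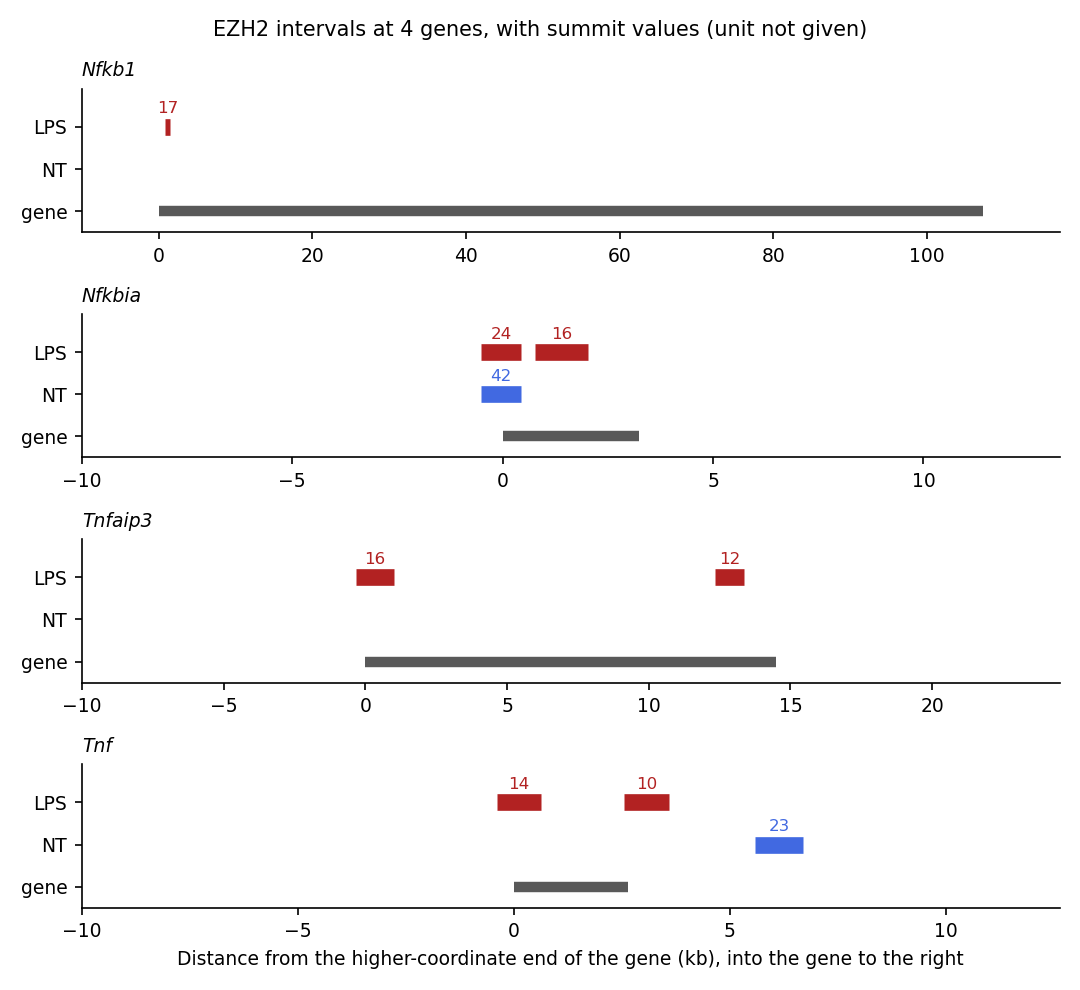
Positions of NT (blue) and LPS (red) intervals at the 4 genes with an LPS interval that met no NT interval, in kb from the higher-coordinate end of each gene (grey bar), with the summit value (unit not given) above each interval. Nfkb1 and Tnfaip3 have red intervals alone, Nfkbia has a blue and a red interval at 0 kb and a red one within the gene, and at Tnf the red intervals lie at both ends and the blue one beyond the gene.

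LPS intervals that met no NT interval were found in the windows of 4 of the 10 genes, Nfkb1, Nfkbia, Tnfaip3 and Tnf, and in 1.4% of all protein-coding genes. At Tnfaip3 and Tnf there were 2 each, which was the case at 0.0914% of all genes. They were 6 of the 14 LPS intervals of the 10 genes (42.9%), and 276 of all 4651 LPS intervals (5.93%) had no partner. Since the genes were chosen with the intervals at Nfkb1, Tnfaip3 and Tnf known, these shares follow from the choice and are not read as a difference. All 6 met the gene itself. Their values were 10 to 17, and those of all 276 had a median of 11 and a maximum of 24. Of the 276, 33.0% (27.7 to 38.7%) had their summit within 1 kb of a start in the promoter table, as the intervals at the starts of Tnf and Tnfaip3 had, against 50.5% (49.0 to 51.9%) of LPS intervals with a partner. That table held 17492 of the 21887 protein-coding genes, so starts of the others were not counted. It did not hold Nfkb1, whose interval could not be set against a start of that gene.

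The depth of NT at these places is not known from the file, but shared regions give the usual NT value beside an LPS value of that size. Where the LPS value was within 3 of the 17 at Nfkb1, 1277 shared regions had a median NT value of 32, with the central 95% from 18 to 56. Within 3 of the 10 at the 3' end of Tnf, 1208 shared regions had a median of 25 and a central 95% from 15 to 46. The lowest value listed in NT was 11, and how intervals were selected for the list is not given. Shared regions are by definition those where NT listed an interval, and regions with a low NT value are missing from these medians.

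NT intervals without an LPS partner stood in 6 of the 10 windows (31.7% of all genes), those of Nfkb2, Rel, Rela, Relb, Nfkbiz and Tnf. They were 7 of 17 NT intervals (41.2%), against 56.8% of all NT intervals. Of the 7, 3 met the gene itself, at Rel, Rela and Nfkbiz, and the others lay over or beside Psd, Sipa1, Clasrp and Ltb. Their values, from 17 to 38, were ones at which many NT intervals lacked a partner. Of all NT intervals, 19.0% from 16 to 20 had one, as did 25.4% from 21 to 25, where 4 of the 7 lay, 36.8% from 26 to 30, and 54.0% from 31 to 40, where the one near Relb lay. Summits within 1 kb of a start in the promoter table, as at Rel and Rela, were the more frequent case in NT without a partner. They made up 66.3% (65.1 to 67.6%) of those intervals and 52.2% (50.7 to 53.8%) of NT intervals with a partner.

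Both libraries listed a region in the windows of Nfkb2, Nfkbia, Nfkbiz and Nfkbie only. There the ratio of LPS to NT value stayed within the central 95% of all shared regions. Over the genes themselves it was 0.571 at Nfkbia, 0.448 at Nfkb2, 0.405 at Nfkbiz and 0.667 at the start of Nfkbie. Past the 3' end of Nfkbie, where the LPS interval met the gene and the NT interval lay 433 bp outside it, over Slc35b2, the ratio was 0.613. Over all 4027 shared regions the median was 0.5 and the central 95% ran from 0.282 to 0.824. Relative to that median, the log2 ratio was 0.19 at Nfkbia, 0.42 at the start of Nfkbie, 0.29 past its 3' end, -0.16 at Nfkb2 and -0.30 at Nfkbiz. Nfkbia lay above 77.3% of the 462 shared regions with an NT value within 3 of its own. The start of Nfkbie, with its low NT value of 18, lay above 61.9% of 412 such regions. Their median ratio was 0.619, so the 0.42 relative to all shared regions is largely usual at such values. The region furthest from the others was the one over Tmem151b beside Nfkbie, with 64 in NT and 50 in LPS, a ratio of 0.781 that only 1 of 171 regions of like NT value reached, the region itself. The region over Hsp90ab1 had a ratio of 0.333, above 6.98% of shared regions.

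**Figure D3:**
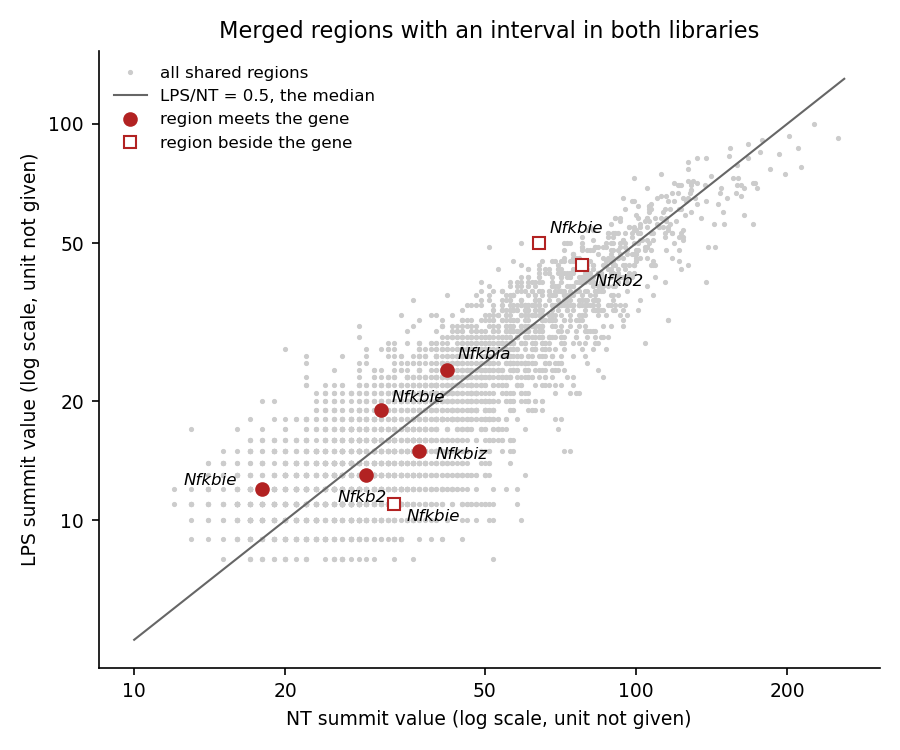
NT against LPS summit value (both on log axes, unit not given) of the 4027 merged regions listed by both (grey), with the 8 regions in the windows of Nfkb2, Nfkbia, Nfkbiz and Nfkbie in red, filled where the region meets the gene. The line marks the median ratio of 0.5, and the red points lie on both sides of it, with the one over Tmem151b (64 in NT and 50 in LPS) farthest above.

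Promoter sequences are shown for 5 genes as examples of starts covered whole by both libraries (Nfkbia), by LPS alone (Tnfaip3 and Tnf) and by NT alone (Rel and Rela). The windows of Nfkb2 and Nfkbie, also covered whole by both, are not printed. A second promoter window of Tnfaip3, with its start at 19011963, lay under no interval of either library and is not printed either. The printed sequences are from RefSeq (GRCm38.p6) and run from 250 bases before to 50 after the start. They are read 5' to 3' on the gene's strand and carry matches to the kappaB consensus motif, the binding motif of NF-kB, in capitals. The promoter of Nfkbia (chr12:55492598-55492897, minus strand) lay under intervals of both libraries, those of Tnfaip3 (chr10:19015361-19015660, minus strand) and Tnf (chr17:35201958-35202257, minus strand) under an LPS interval, and those of Rel (chr11:23770920-23771219, minus strand) and Rela (chr19:5637291-5637590, plus strand) under an NT interval.
Nfkbia: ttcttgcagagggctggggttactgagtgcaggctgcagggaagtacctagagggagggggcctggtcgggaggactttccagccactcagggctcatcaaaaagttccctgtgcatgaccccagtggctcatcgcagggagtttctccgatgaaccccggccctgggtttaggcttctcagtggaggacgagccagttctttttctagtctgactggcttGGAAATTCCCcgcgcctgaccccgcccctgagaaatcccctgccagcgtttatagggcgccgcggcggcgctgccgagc
Tnfaip3: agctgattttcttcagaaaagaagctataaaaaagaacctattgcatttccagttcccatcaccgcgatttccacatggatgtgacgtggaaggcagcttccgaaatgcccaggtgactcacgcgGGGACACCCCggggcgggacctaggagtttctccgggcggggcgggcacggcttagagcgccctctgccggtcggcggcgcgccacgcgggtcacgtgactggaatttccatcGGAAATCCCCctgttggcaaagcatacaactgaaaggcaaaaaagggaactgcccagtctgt
Tnf: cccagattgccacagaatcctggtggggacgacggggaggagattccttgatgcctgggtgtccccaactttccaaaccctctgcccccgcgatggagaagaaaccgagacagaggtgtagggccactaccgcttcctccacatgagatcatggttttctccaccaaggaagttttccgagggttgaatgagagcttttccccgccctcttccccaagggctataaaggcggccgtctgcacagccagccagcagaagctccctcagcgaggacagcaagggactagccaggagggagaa
Rel: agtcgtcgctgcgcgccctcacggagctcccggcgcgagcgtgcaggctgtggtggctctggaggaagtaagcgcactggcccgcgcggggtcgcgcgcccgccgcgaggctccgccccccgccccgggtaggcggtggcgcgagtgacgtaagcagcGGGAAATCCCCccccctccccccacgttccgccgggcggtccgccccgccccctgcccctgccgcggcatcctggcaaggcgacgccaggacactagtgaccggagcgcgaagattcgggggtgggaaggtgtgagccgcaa
Rela: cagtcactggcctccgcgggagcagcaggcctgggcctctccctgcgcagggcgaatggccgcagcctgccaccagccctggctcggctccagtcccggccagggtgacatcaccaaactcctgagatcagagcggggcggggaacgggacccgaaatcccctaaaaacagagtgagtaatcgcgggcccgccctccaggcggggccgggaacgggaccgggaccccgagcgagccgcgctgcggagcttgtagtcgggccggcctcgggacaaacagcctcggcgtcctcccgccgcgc

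The promoter table held 7 of the 10 genes, with 10 promoter windows. Searched on both strands, with overlapping matches counted as 1, the kappaB consensus motif was found in 7 of these 10 windows. In the whole table it was found in 4.51% of 32851 promoters. The 7 windows belonged to 5 genes, Nfkb2, Rel, Nfkbia, Nfkbie and Tnfaip3, and overlapping windows of Nfkb2 share a match. Counting the transcription start as 0, the match in Nfkbia lay from -29 to -20, those in Tnfaip3 from -125 to -116 and from -12 to -3, and the one in Rel from -92 to -82. The window of Tnf had no match, and neither had that of Rela, which says only that the letters are not in those 300 bases. TATAAA, on either strand and not overlapping a kappaB match, was in windows of Tnf, Nfkbia and Tnfaip3, and in 13.6% of all promoters. In Tnf it lay from -29 to -24 and in Tnfaip3 from -225 to -220. In Nfkbia it lay from 19 to 24, downstream of the start and on the other strand. CG pairs, which are frequent in promoters bound by polycomb proteins, numbered 42 in the window of Rel, 31 in that of Rela, 22 at the start of Tnfaip3, 15 in that of Nfkbia and 11 in that of Tnf, where the median over all promoters was 7. The windows of Rel and Rela, the only ones under an NT interval alone, held more CG pairs than each of the 8 other windows, which held 6 to 25. Matches and CG counts in these windows are a description and were not tied to EZH2 by any measurement here. The order of the windows by CG pairs was not tested.

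In a list of 59 other genes of the pathway, 43 had an NT interval within 10 kb (72.9%, against 46.0% of all protein-coding genes) and 12 an LPS interval (20.3%, against 21.2%). Both libraries had one at 11 (18.6%, against 20.6%), NT alone at 32 (54.2%, against 25.4%) and LPS alone at 1 (1.69%, against 0.635%). With the NT list shortened to its 4651 highest intervals, 19 of the 59 had an NT interval, a larger share than the 26.1% of all protein-coding genes. LPS alone was then at 7 of the 59, also a larger share than the 4.66% of all. Both the counts and the shares thus depend on the length of the NT list. Among 11 kinases and their partners, NT intervals were near 7 and LPS intervals near 2. Of 16 adaptors and ubiquitin ligases, which carry the signal from receptors to the kinases, 15 had an NT and 4 an LPS interval. Among 10 genes of the LPS receptor complex, 7 were near NT intervals, and Irak2 (26 in NT and 11 in LPS) was the only one near an LPS interval. Of the 3 other IkB genes, Nfkbib (15) and Nfkbid (26) had NT alone, and Bcl3, a nuclear IkB protein that binds p50 and p52, had 19 in NT and 12 in LPS. Of 11 negative regulators, 6 had an NT and 1 an LPS interval. Among 8 ligands and receptors of the TNF family, 5 were near NT and 3 near LPS intervals, and the latter were Cd40, Lta and Ltb.

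The highest NT values in the pathway list were those near Traf3, an adaptor that restrains the noncanonical pathway (105 in NT and 58 in LPS), Tab1, a partner of the kinase TAK1 (66 and 28), and Ikbke, an IkB kinase-related gene (56 and 16). Next in NT came Traf2 (42, no LPS interval) and Cd14, the LPS co-receptor (37, no LPS interval). In LPS, Tradd (18, against 33 in NT) came after Tab1 and before Ikbke, and Malt1 (15, against 28) came after Ikbke. The gene with LPS alone was Cd40, which encodes a receptor of the TNF family that activates the noncanonical pathway. On chromosome 2 it had LPS intervals over its lower-coordinate end (165055430 to 165056432, value 13) and beyond its other end (165076681 to 165077696, value 9). Unpartnered LPS intervals were also in the windows of Irak3 (value 14, beside the gene) and of Lta and Ltb, whose windows hold the same intervals as that of Tnf.

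**Figure D4:**
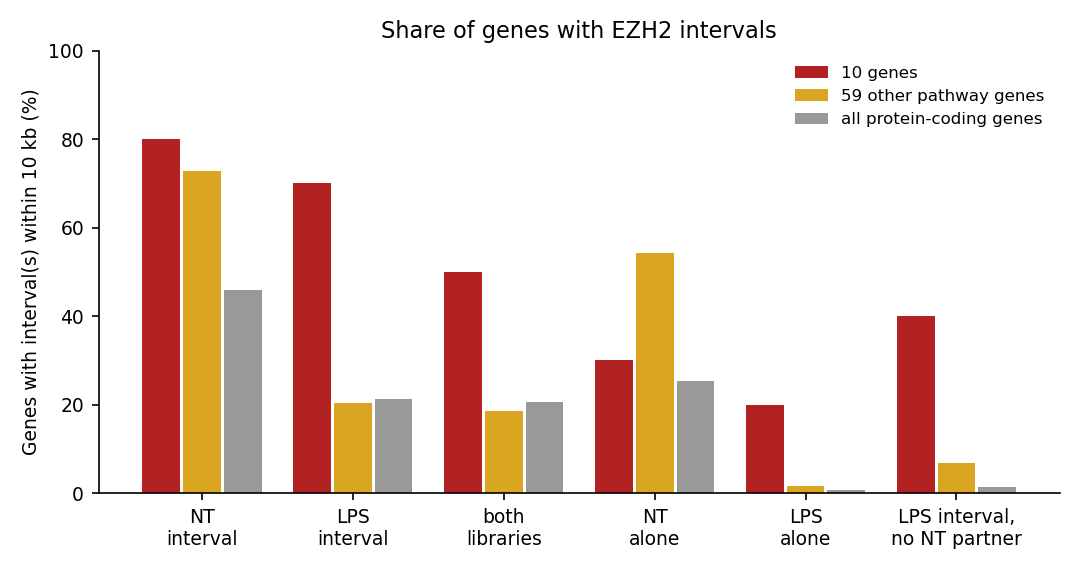
Percentage of genes with an EZH2 interval within 10 kb, for the 10 genes (red), the 59 other pathway genes (yellow) and all 21887 protein-coding genes (grey), by library. The pathway genes stand at 72.9% for NT and 20.3% for LPS, and the 10 genes, which were chosen by these values, at 8 and 7 of 10.

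Macrophage marker genes give no check of cell identity here, since an EZH2 interval is no measure of expression. Spi1 had a value of 23 in NT and no LPS interval, Cd68 had 34 in NT and 11 in LPS, and Csf1r, Adgre1 and Itgam had no interval in either library. Genes closest to 3 of the described genes were found from 4 values per gene, the highest summit value and the covered length in NT and in LPS, over these 2 libraries. For Nfkb1 they were Asns and Nup85, each with LPS intervals alone (17 and 19). For Nfkbia they were Cmpk2 (42 in NT and 22 in LPS) and Pm20d2 (44 and 25), and for Tnf they were Bcat1 (25 and 14) and Amotl1 (23 and 14). The NT values used for Tnf were those of the interval over Ltb, and no NT interval met Tnf itself.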

How the data were processed

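The authors deposited 1 file of 5 tracks, which are summits and intervals for each of the 2 EZH2 libraries and merged regions. Per the submitters' processing notes, BWA, SICER and mm10 were used; versions, roles, settings, duplicate removal, use of the input and scaling are not given in the sources used here. The deposited score at each summit is a whole number of unknown unit. Summits have equal start and end in the file, and all positions are printed 1-based. Read depth is unknown, so no count test was possible and no test between conditions was made.

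Genes were placed by a RefSeq table, and starts and strands by a promoter table, both of GRCm38.p6, which mm10 is based on. Python 3.11.15 with pandas 2.3.3 and scipy 1.17.1 was used. An interval was counted by at least 1 shared base with a gene extended by 10 kb, and a partner by at least 1 shared base. The overlap code was tested on simulated data against a direct count.

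The 10 genes, the pathway list and the alternatives were chosen with earlier results of these data known. Named besides the 10 were genes under their intervals, pathway genes with LPS alone or among the 5 highest values of a library, other IkB genes, and the 2 nearest genes for Nfkb1, Nfkbia and Tnf. Irak2, Irak3, Lta, Ltb and the macrophage markers were named after their values were seen. Part of the marker list is not reported here. Lists were described by counts beside all protein-coding genes. Alternatives were other windows, stricter lists, summits in place of intervals, and scaled ratios.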

Additional observations from a re-analysis of the deposited data

How the results depend on the processing

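No paired analysis was possible because NT and LPS had 1 EZH2 library apiece. Values show dependence on settings, not on samples; the cause of each shift was not tested, except that stricter lists and smaller windows hold fewer intervals by construction. Intervals on the genes themselves, and partners within 1 kb, were added after seeing the data. Of 320 recomputed highest values and covered lengths of the 10 genes, 258 stayed within 1.5 times. Nfkb1 and Tnfaip3 had LPS alone in each setting.

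In the following, shares of all genes and counts are given in the order NT, LPS, both, NT alone and LPS alone. With 2.5 kb around either gene end, the shares were 38.2, 16.2, 15.6, 22.6 and 0.535%; 2 of the 10 genes had both libraries and 5 had NT alone, and of the pathway genes 6 had LPS, 4 both and 2 LPS alone. With a 5 kb window the shares were 42.5, 18.8, 18.2 and 24.3% before LPS alone, and 6 pathway genes had both and 2 LPS alone. With 25 kb they were 54.4, 27.8, 27.2 and 27.2%. On the gene itself they were 38.0, 16.2, 15.7 and 22.4%, and 5 pathway genes had LPS and 4 both. Over all genes of the table they were 28.3, 13.4, 12.9, 15.3 and 0.505%.

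Keeping intervals from the median value up, the shares were 26.9, 12.8, 12.1 and 14.8% before LPS alone; 5 of the 10 genes had NT and 3 both, and pathway counts were 19, 4, 4, 15 and 0. With the NT list shortened to the 4651 highest intervals, 26.1% had NT, 16.6% both, 9.54% NT alone and 4.66% LPS alone; 5 of the 10 genes had NT and 1 (Relb, no longer Rel and Rela) NT alone, while LPS alone was at 3 (Nfkb1, Tnfaip3 and Tnf), and pathway counts were 19 for NT, 5 for both, 14 for NT alone and 7 for LPS alone. With a common floor of 11, 19.4% had LPS, 19.0% both, 27.1% NT alone and 0.434% LPS alone. Divided by the median ratio, the log2 ratio changed sign at Nfkbia (0.19), beside Nfkb2 (0.17) and in 3 regions near Nfkbie (0.64, 0.42 and 0.29).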

Other observations

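The windows of 20 protein-coding genes held 2 or more LPS intervals that met no NT interval, and they were looked up after the values at Tnf and Tnfaip3 had been seen. Acod1, which encodes the enzyme that makes itaconate in activated macrophages, had 6 such intervals, with a highest LPS value of 16 and no NT interval within 10 kb. The chemokine gene Ccl4 had 4 (highest value 24), and the antiviral gene Rsad2 had 3 (21). Besides Tnf, Tnfaip3, Lta, Ltb and Cd40, the genes with 2 were Cxcl10 and its overlapping neighbour Art3, Ccl3, Slfn2, Slfn5, Ifi47, the heat shock genes Hspa1a and Hspa1l, Tbx3, Eml2, Gpr4 and Tmprss2. Neighbours among the 20 share intervals. NT intervals were listed within 10 kb of Tbx3 (43), Eml2 (25), Tnf, Lta and Ltb (23), Hspa1a and Tmprss2 (21), Hspa1l (20), Art3 (18) and Gpr4 (16).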
